A study of Rattus norvegicus with 9 samples.

Results

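The 8 troponin genes of the rat (Tnnt1, Tnnt2 and Tnnt3 for troponin T, Tnni1, Tnni2 and Tnni3 for troponin I, Tnnc1 and Tnnc2 for troponin C) were followed in RNA-seq libraries of cultured cardiac fibroblasts. They are 8 of the 17337 genes in the deposited count table, taken by symbol as the whole gene family. The family was singled out because Tnnt2 stayed expressed in adult cultures in which other cardiomyocyte transcripts were at or near 0, so the adult values below are a description and carry no test for these genes. The cells came from Sprague Dawley rats at 3 ages, with 3 libraries per age. Fetal cells were taken on embryonic day 18, neonatal cells on the first postnatal day (P1) and adult cells from animals 7 weeks old. All cultures carried the same label P0, were grown to confluency in flasks in the same serum medium with ascorbic acid, and had no treatment or genetic change. The labels do not say whether the libraries of 1 age came from separate animals or cultures, so each p-value measures only the spread between these libraries.

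Troponin is the calcium switch of the striated muscle thin filament. Troponin T anchors the complex to tropomyosin, troponin I holds back the interaction of actin with myosin, and troponin C binds calcium and releases that block. Each subunit has muscle-type paralogues. Tnnt2 and Tnni3 encode the cardiac troponin T and I, and Tnnc1 encodes the troponin C shared by heart and slow skeletal muscle. Tnnt1 and Tnni1 are the slow skeletal forms, and Tnni1 is also the troponin I of the fetal heart, replaced by Tnni3 as the heart matures. Tnnt3, Tnni2 and Tnnc2 are the fast skeletal forms. Troponins are textbook markers of muscle cells, not of fibroblasts.

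Troponin T and I genes lie side by side in the rat genome. In the rn6 annotation of the count table, Tnni1 (chr13:52625441-52636257) and Tnnt2 (chr13:52667969-52680990) stood 31.7 kb apart on the plus strand, with 1 listed gene, Lad1, between them. Tnni3 (chr1:72882806-72886490) and Tnnt1 (chr1:72889270-72899629) were 2.78 kb apart with no gene between. Tnni2 (chr1:215609110-215611652) and Tnnt3 (chr1:215666628-215683628) were 54.98 kb apart, with Lsp1 between them. The troponin C genes stood alone, Tnnc1 on chr16:7292207-7295238 and Tnnc2 on the minus strand of chr3:161243747-161244831. No other gene's exons overlapped the exons of any of the 8 genes, so reads counted for them did not come from an overlapping annotated exon.

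RefSeq promoters of the GRCr8 assembly, a later build than that of the counts, were matched by symbol to 6 of the 8 genes, with 7 entries in all because Tnnt2 has 2 annotated starts. The 250 bases before the start are printed for the Tnni1 and Tnnt2 neighbours, whose adult levels were far apart, and for Tnni3, the other cardiac member with an entry. Capitals mark matches to CATTCC (the MCAT element, on either strand) and to AGATAA (the site of GATA factors, in both windows on the reverse strand and so printed as the reverse complement). The windows are chr13:49818873-49819122, chr13:49781279-49781528 and chr1:78342321-78342570 in the order printed, all on the plus strand.
Tnnt2 (first entry): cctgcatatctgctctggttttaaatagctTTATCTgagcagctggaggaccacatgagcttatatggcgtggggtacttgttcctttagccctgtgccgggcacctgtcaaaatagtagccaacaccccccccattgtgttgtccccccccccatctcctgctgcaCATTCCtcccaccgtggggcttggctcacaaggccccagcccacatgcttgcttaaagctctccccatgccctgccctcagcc
Tnni1: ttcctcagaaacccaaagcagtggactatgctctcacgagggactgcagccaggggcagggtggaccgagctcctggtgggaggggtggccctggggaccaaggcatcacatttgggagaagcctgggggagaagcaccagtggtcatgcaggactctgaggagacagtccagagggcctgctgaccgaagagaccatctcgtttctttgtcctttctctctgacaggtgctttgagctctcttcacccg
Tnni3: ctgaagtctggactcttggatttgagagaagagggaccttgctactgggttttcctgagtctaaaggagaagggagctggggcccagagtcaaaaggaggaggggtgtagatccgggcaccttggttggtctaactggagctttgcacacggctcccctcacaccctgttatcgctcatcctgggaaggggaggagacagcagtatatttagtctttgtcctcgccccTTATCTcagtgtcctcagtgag
In the first Tnnt2 window the MCAT match began 83 bases before the start and the GATA match 220 bases before it. The Tnni3 window had a GATA match 22 bases before the start, and the Tnni1 window had neither. The second Tnnt2 window, which is not printed, also had neither. Which Tnnt2 start these cells used was not tested. CATTCC was found in 12.1% and AGATAA in 10.3% of the 33469 rat promoters of the same length, searched on both strands. E-boxes (CANNTG), which are in 65.5% of all promoters, numbered 4 in the first Tnnt2 window, 2 in the Tnni1 window and 1 in the second Tnnt2 window. TATAAA, present in 12.9% of all promoters, was found in the Tnnt1 and Tnni2 windows. TGATAA (another GATA site, 7.97% of all promoters) and the MEF2 and CArG motifs (2.96% and 1.5%) were found in none of the 7 windows. AAGTG, the NKX2-5 core found in 40.6% of all promoters, was found in the Tnnc2 window only, where it lay inside an E-box match. A match is a stretch of letters, not a measured binding site.

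Each library held 13392825 to 22850491 counts assigned to genes. Levels are given as counts per 1e+06 (CPM) on TMM-scaled totals, and as CPM per kilobase of exon where different genes are compared. Fetal replicate 3 stood apart from the other fetal libraries: its log2 CPM profile was 77.5 and 77.1 units (Euclidean distance over genes) from fetal replicates 1 and 2, which were 24.7 apart, while distances within the neonatal and adult groups were 23.5 to 26.2 and 40.0 to 56.3. All 10 fibroblast markers had counts in every library (26484 to 76889 summed CPM), though Col1a2, known as abundant in fibroblasts, had only 1 to 21; whether it was counted too low was not tested. The 12 macrophage markers summed to 14.9 to 74.8 CPM in fetal, 168 to 185 in neonatal and 4419 to 6223 in adult cultures, and all 12 were called higher in adult cultures than at either other age. The 22 cardiomyocyte genes other than troponins summed to 6702 to 10109 CPM in fetal, 4438 to 5033 in neonatal and 21.9 to 27.1 in adult cultures. These bulk values cannot tell fewer cells of a type from less RNA per cell, and the part that other cell types had in any result below was not tested.

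Tnnt2 was the highest troponin at every age, and the only one of the cardiac forms that stayed above 300 CPM in adult cultures. In fetal replicates 1, 2 and 3 it stood at 2683.5, 2842 and 2152 CPM, in the neonatal replicates at 1639, 1594 and 1676 CPM, and in the adult replicates at 303, 310.0 and 316 CPM. All fetal libraries were above all neonatal ones and these above all adult ones. The adult level rested on 3959, 4294 and 4215 counts. Between neonatal and fetal cultures Tnnt2 fell by 0.65 on the log2 scale (SE 0.10, 1.56-fold lower, edgeR adjusted p = 0.00175), and it was called lower under each alternative run, with adjusted p between 1.57e-08 and 0.0129. As a description, the adult mean of 309 ± 6.35 CPM (SD, n = 3) was 8.27-fold below the fetal mean of 2559 ± 362 (log2 difference -3.05, SE 0.11) and 5.29-fold below the neonatal mean of 1636 ± 41.2 (-2.40, SE 0.11). Ranked by CPM per kilobase among all 17337 genes, Tnnt2 was 9th to 11th in the fetal libraries, 23rd to 26th in the neonatal ones and between places 280 and 309 in the adult ones.

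**Figure D1:**
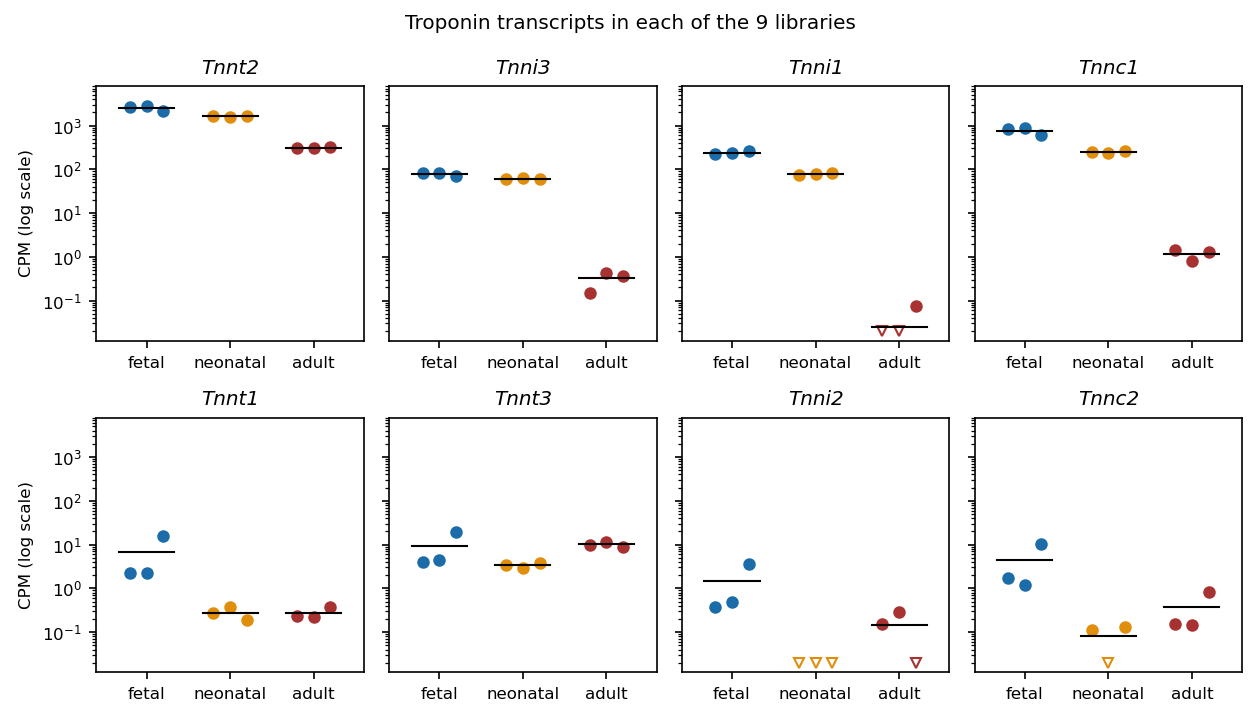
CPM of each of the 8 troponin genes in each library (log axis), by age; each point is 1 library, each line the mean of an age, and open markers at the foot are libraries with 0 counts. Tnnt2 stays between 303 and 316 CPM in the adult libraries, while Tnni1, Tnni3 and Tnnc1 are below 1.5 CPM there.

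Tnnc1, the calcium-binding subunit of heart and slow muscle, was the next highest troponin in fetal and neonatal cultures and almost absent from adult ones. It measured 812, 860.2 and 601 CPM in the fetal replicates, 246, 240.3 and 260.2 in the neonatal ones and 1.45, 0.794 and 1.27 in the adult ones, where it had 11 to 19 counts. The 3 ages did not overlap. Tnnc1 fell by 1.61 on the log2 scale from fetal to neonatal cultures (SE 0.14, 3.05-fold lower, edgeR adjusted p = 8.77e-05). The adult mean was 0.155% of the fetal mean. On the fitted scale, where a prior count of 2 shrinks the difference, adult cultures were 590-fold below fetal ones (log2 difference -9.20, SE 0.22) and 194-fold below neonatal ones (-7.60, SE 0.21).

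Tnni1, the slow and fetal-heart troponin I, had 1 count in all 3 adult libraries together. It measured 227, 231 and 259 CPM in the fetal replicates and 74.8, 76.8 and 81.1 in the neonatal ones, and 0, 0 and 0.0749 in the adult ones. From fetal to neonatal cultures it fell by 1.62 on the log2 scale (SE 0.10, 3.08-fold lower, edgeR adjusted p = 1.09e-05). Set against its 14318 fetal counts, the single adult count gives a ratio of 9606, with an exact 95% interval of 1724 to 379436 that covers counting error only. Tnnt2, which lies beside Tnni1 on chromosome 13, had 3959, 4294 and 4215 counts in the same adult libraries.

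Tnni3, the troponin I of the mature heart, changed least between fetal and neonatal cultures among the cardiac forms. It measured 82.4, 81.9 and 70.6 CPM in the fetal replicates, 58.5, 62.4 and 61.5 in the neonatal ones and 0.153, 0.433 and 0.374 in the adult ones. The neonatal libraries were all below the fetal ones, by 0.36 on the log2 scale (SE 0.10, 1.29-fold lower, edgeR adjusted p = 0.0196). That call was lost when fetal replicate 1 or 2 or any 1 neonatal replicate was left out (adjusted p 0.0572 to 0.0929), with the same direction each time. The adult libraries held 13 Tnni3 counts in all against 4714 in the fetal ones, a ratio of 243 (exact 95% interval 142 to 457), and against 3357 in the neonatal ones, a ratio of 189 (110.1 to 355).

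The make-up of each subunit was compared per kilobase of exon, as shares of the summed CPM per kilobase of its paralogues. Troponin T was almost all Tnnt2 at every age, with 98.3% to 99.8% in fetal, 99.8% in each neonatal and 96.4% to 97.2% in adult libraries. Troponin I was a mixture. Tnni1 made up 72.8%, 73.3% and 77.2% of it in the fetal replicates and 55.6%, 54.6% and 56.3% in the neonatal ones, and the Tnni3 share was 27.0%, 26.6% and 21.5% in fetal against 44.4%, 45.4% and 43.7% in neonatal libraries. The 2 ages did not overlap in either share. Over the 3 libraries of an age, the Tnni3 share averaged 25.0% ± 3.06 in fetal and 44.5% ± 0.858 in neonatal cultures (SD, n = 3), with Tnni1 having fallen more than Tnni3 in CPM. In the adult libraries the troponin I shares rest on a handful of counts and carry no order. Troponin C was 98.3% to 99.9% Tnnc1 in fetal libraries and 90.4%, 84.5% and 60.5% in the adult ones, where Tnnc2 had 2, 2 and 11 counts.

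**Figure D2:**
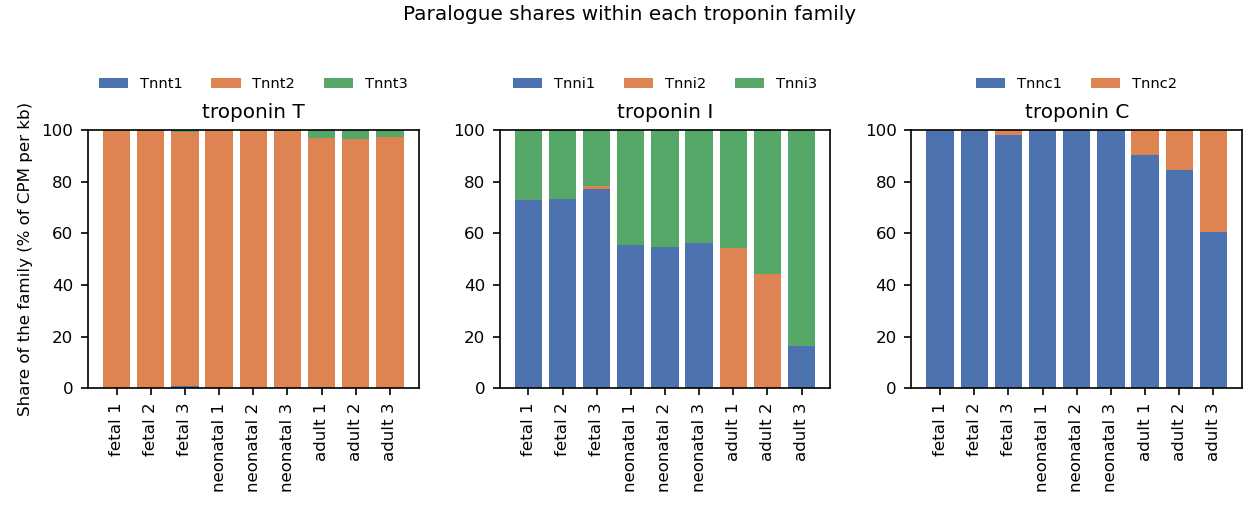
Share of each paralogue within troponin T, I and C (percent of the summed CPM per kilobase of exon), 1 bar per library. Tnnt2 fills troponin T at every age, and the Tnni3 part of troponin I is larger in the 3 neonatal libraries (43.7% to 45.4%) than in the 3 fetal ones (21.5% to 27.0%).

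The 3 subunits were not found at equal levels. Summed over paralogues, troponin T, I and C averaged 2351, 390.2 and 1568 CPM per kilobase in fetal, 1496, 170.0 and 512 in neonatal and 292, 0.645 and 3.19 in adult cultures. The ratio of Tnnt2 to Tnnc1 per kilobase was 1.47, 1.47 and 1.59 in the fetal replicates, 2.96, 2.94 and 2.86 in the neonatal ones and 92.4, 173 and 110 in the adult ones. The ratio of Tnnt2 to the sum of Tnni1 and Tnni3 was 6.47, 6.77 and 4.88 in fetal, 9.13, 8.50 and 8.73 in neonatal and 1452, 525 and 517 in adult libraries. Both ratios separated the 3 ages without overlap. The size of the adult ratios is loose, since the adult replicates held 19, 11 and 17 Tnnc1 counts. They held 0, 0 and 1 Tnni1 and 2, 6 and 5 Tnni3 counts. Exon lengths are those of the count table, 1096 bases for Tnnt2, 486 for Tnnc1, 822 for Tnni1 and 804 for Tnni3.

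The skeletal forms other than Tnni1 were low, and their fetal values were set mainly by fetal replicate 3. Tnnt1, the slow troponin T, measured 2.21, 2.29 and 15.8 CPM in the fetal replicates, 0.275, 0.372 and 0.194 in the neonatal ones and 0.229, 0.217 and 0.374 in the adult ones. The neonatal minus fetal difference was -4.09 on the log2 scale (SE 0.82), and -2.55 without fetal replicate 3. Neonatal and adult libraries overlapped.

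Tnnc2, the fast troponin C, measured 1.73, 1.19 and 10.5 CPM in the fetal replicates, 0.110, 0 and 0.129 in the neonatal ones and 0.153, 0.144 and 0.823 in the adult ones. The neonatal minus fetal difference was -4.59 on the log2 scale (SE 1.00), and -3.04 without fetal replicate 3. Both Tnnt1 and Tnnc2 passed the filter on low counts only through the fetal libraries, where they are high, so they had to differ and no p-value is given for them. Tnni2, the fast troponin I, did not pass the filter and was not tested. It had 7, 11 and 66 counts in the fetal replicates, none in the neonatal ones and 2, 4 and 0 in the adult ones, which puts the neonatal level at least 25.7-fold below the fetal one (against a floor of 3 counts over the group), or at least 8.03-fold without fetal replicate 3.

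Tnnt3, the fast troponin T, was the one gene of the family whose adult libraries were not below the fetal ones. It measured 4.05, 4.50 and 19.5 CPM in the fetal replicates, 3.36, 2.88 and 3.82 in the neonatal ones and 9.79, 11.5 and 8.98 in the adult ones. The adult libraries lay above every neonatal library, above fetal replicates 1 and 2 and below fetal replicate 3. The neonatal libraries were all below the fetal ones, but the difference did not pass the test (log2 -1.45, SE 0.56, edgeR adjusted p = 0.0713); without fetal replicate 3 it was -0.35 (adjusted p = 0.147). The same difference did pass with fetal replicate 1 left out (-1.80, adjusted p = 0.0289), with fetal replicate 2 left out (-1.78, 0.0359), with scaling by library size only (-1.67, 0.0480) and with DESeq2 (-1.49, 0.0171). The adult minus neonatal difference was 1.56 (log2, SE 0.56, 2.96-fold higher), and adult minus fetal was 0.11 (SE 0.53), which turned to 1.21 without fetal replicate 3 and was below 0 in 3 alternatives (-0.25 without fetal replicate 1, -0.22 without fetal replicate 2, -0.05 with library size only). By CPM per kilobase Tnnt3 was the next troponin after Tnnt2 in adult cultures, at 8.996 ± 1.14 against 282 ± 5.79 (SD, n = 3).

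Relative to the mean of fetal replicates 1 and 2, fetal replicate 3 held 7.00 times the Tnnt1, 4.56 times the Tnnt3, 8.13 times the Tnni2 and 7.21 times the Tnnc2. The cardiac forms did not share this: the ratio was 0.779 for Tnnt2, 0.859 for Tnni3 and 0.718 for Tnnc1, and 1.13 for Tnni1. Skeletal muscle genes moved with the low troponins in that library. Of 18 skeletal muscle genes with at least 10 fetal counts, 11 (61.1%) were at a ratio of 2 or more, against 622 of 11269 tested genes (5.52%) and 2 of 22 cardiomyocyte genes (9.09%). Among them was the embryonic myosin heavy chain Myh3 (4.20). Named after their values were seen, so were the myogenic factors Myod1 (8.09) and Myog (6.62) and the fast myosin light chain Mylpf (9.27). The shares of 61.1% and 5.52% rest on unlike filters. Skeletal muscle genes were kept by their fetal counts, and the background genes by the filter of the fit. Skeletal muscle genes such as Myod1 and Myf5 did not pass that filter, and Myf5 had 0, 2 and 12 fetal counts. All 12 macrophage markers were also at 2 or more in that library (median ratio 7.73), while none of the 10 fibroblast markers was (median 0.465, with the barely counted Col1a2 lowest at 0.0899). The library's part in the low troponins' fetal means is given by the values without it: 2.25 CPM for Tnnt1, 4.27 for Tnnt3, 0.431 for Tnni2 and 1.46 for Tnnc2.

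**Figure D3:**
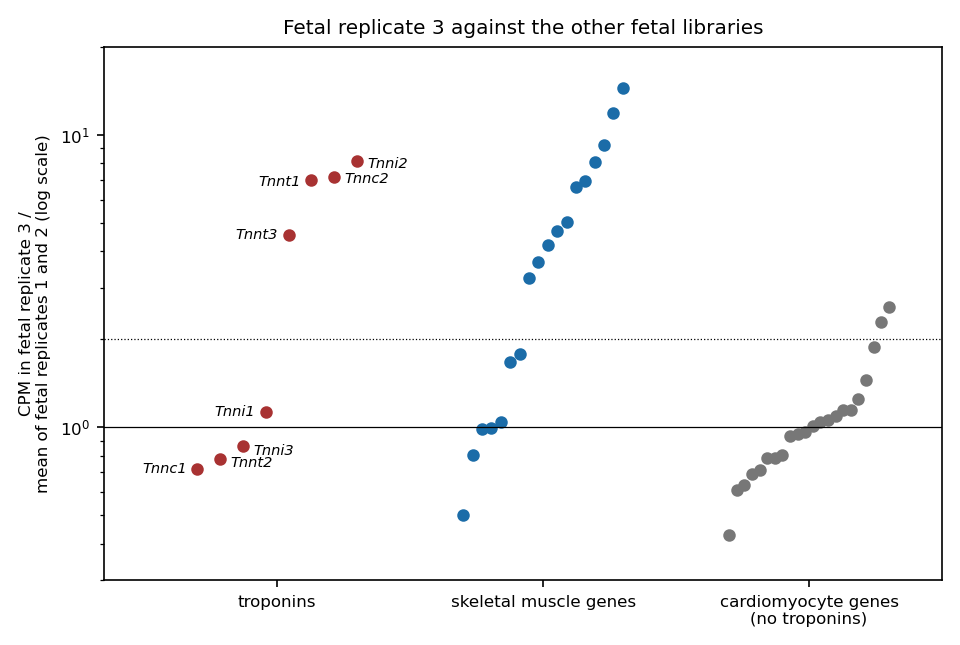
Ratio of CPM in fetal replicate 3 to the mean of fetal replicates 1 and 2 (log axis), 1 point per gene, for the 8 troponins, 18 skeletal muscle genes and 22 cardiomyocyte genes; the dotted line is a ratio of 2. Tnnt1, Tnnt3, Tnni2 and Tnnc2 lie between 4.56 and 8.13, among the higher skeletal muscle genes, and the cardiac troponins lie near or below 1.

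Over the family, Tnnt2, Tnni1, Tnni3 and Tnnc1 were called lower in neonatal than in fetal cultures by edgeR, Tnnt3 was not called, and none was called higher, where 36.3% of all 11337 tested genes were called, 18% lower and 18.3% higher. Tnnt1 and Tnnc2 also met the threshold but are left out of this count, since they entered the fit only through their high fetal values. In Tnnt2, Tnnt3, Tnni1, Tnni3 and Tnnc1 all neonatal libraries lay below all fetal libraries, as in 28.1% of all tested genes. The same was seen in Tnnt1 and Tnnc2, which had to be lower, and in Tnni2, which was not tested. Those genes cannot be set against that share. These counts describe the family and are not a test of it. In adult against fetal cultures, 7 of 8 genes were lower with no overlap (35.8% of all tested genes), with Tnnt3 the exception. The same limits hold there for Tnnt1, Tnnc2 and Tnni2. In adult against neonatal cultures, Tnnt2, Tnni1, Tnni3 and Tnnc1 were lower with no overlap (38.5% of all tested genes). Tnnt3 was higher with no overlap (37.6%), and Tnnt1 and Tnni2 overlapped. Tnnc2 was higher with no overlap in CPM only. Its counts were 2, 0 and 2 in neonatal and 2, 2 and 11 in adult libraries, so they met at 2. Tnnc2 cannot be set against the 37.6%. Nothing is drawn from the adult counts, since the family was chosen on those libraries. Of the low genes, the adult libraries held 11 Tnnt1 counts against 390 in the fetal ones (a ratio of 23.8, exact 95% interval 13.1 to 48.0), 15 Tnnc2 counts against 257 (11.5, 6.84 to 20.8) and 6 Tnni2 counts against 84 (9.39, 4.14 to 26.3). Fetal replicate 3 supplied 297, 198 and 66 of those fetal counts. Without it the adult minus fetal log2 difference went from -4.14 to -2.61 for Tnnt1 and from -3.23 to -1.68 for Tnnc2.

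The level of Tnnt2 in adult cultures was set beside 22 other cardiomyocyte genes, such as the myosins, the sarcomere proteins and the natriuretic peptides. The adult mean of Tnnt2 was 12.1% of its fetal mean, while the 22 genes kept 0% to 6.67%, with a median of 0.131%. Nearest to it were Hspb7, a small heat shock protein of striated muscle, at 6.67%, and Myl4, the atrial and fetal myosin light chain, at 5.95%. The highest cardiomyocyte genes in fetal cultures were nearly absent from adult ones: Nppa, the atrial natriuretic peptide, went from 3040 ± 1244 to 0.353 CPM, Myh7, the slow myosin heavy chain, from 1337 ± 86.0 to 0.0754 CPM, and Myh6, the adult rodent heart's myosin heavy chain, from 775 ± 214 to 0.0496 CPM. Csrp3, Sln, Mb and Nkx2-5 had 0 counts in all adult libraries. Per adult library, 10 to 13 of the 22 genes had 3 counts or fewer. The other cardiac troponins lay within the range of these genes, with Tnni3 at 0.409%, Tnnc1 at 0.155% and Tnni1 at 0.0104% of their fetal means.

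Between neonatal and fetal cultures Tnnt2 did not stand out from the cardiomyocyte genes. Its neonatal mean was 63.9% of the fetal mean, inside the range of 11.8% to 149% (median 50.7%) over the 22 genes, 4 of which were above it. Tnni3 was at 77.6%, Tnnc1 at 32.8% and Tnni1 at 32.5%. Of the 22 genes, 19 were called lower by edgeR and none higher, and Myl7, Myom2 and Nppa were not called. That is 86.4% of the list, where 36.3% of all tested genes were called (18% lower). With 1 library left out the number called was 15 to 21, and without fetal replicate 3 the counts were 20 lower and 1 higher. The ratio of Tnnt2 to the sum of these genes (per kilobase) was 0.303, 0.303 and 0.391 in the fetal replicates, 0.394, 0.377 and 0.367 in the neonatal ones and 13.6, 19.0 and 15.6 in the adult ones. Fetal and neonatal libraries overlapped in this ratio, and the adult libraries stood far above both.

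**Figure D4:**
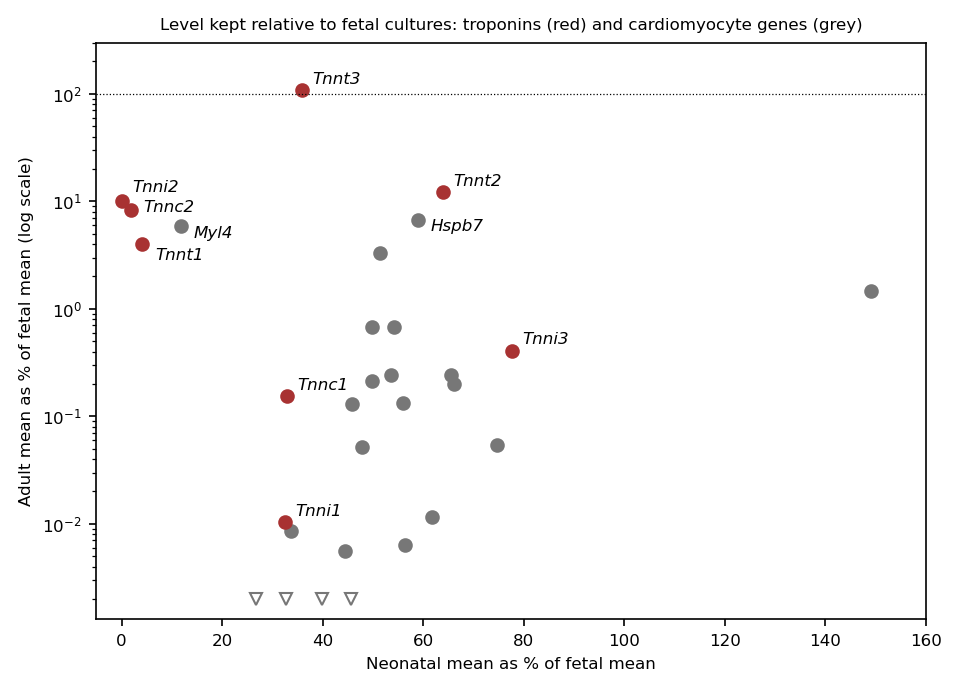
Adult mean as a percent of the fetal mean (log axis) against neonatal mean as a percent of the fetal mean, 1 point per gene, troponins in red and 22 cardiomyocyte genes in grey; triangles at the foot are the 4 genes with 0 adult counts and the dotted line is 100%. Tnnt2 (63.9%, 12.1%) lies above every grey point on the adult axis and inside their range on the neonatal axis.

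The proteins that troponin works on were read next. Tested were 16 thin filament genes (actins, tropomyosins, tropomodulins, leiomodins and nebulette). Of them, 6 were called lower and 2 higher in neonatal than in fetal cultures by edgeR. That is 50% of the list, where 36.3% of all tested genes were called (18% lower, 18.3% higher). The median log2 difference was -0.30 against -0.00529 over all genes. In adult against fetal cultures 9 were lower and none higher (median -0.81), where 70.5% of all tested genes were called (35.5% lower, 34.9% higher), and in adult against neonatal cultures 11 were lower and 2 higher (median -1.38), where 63.5% were called (31.8% lower, 31.6% higher). Without any 1 of the neonatal replicates the neonatal count was 5 lower and none higher. Actc1, the cardiac actin, went from 2713 ± 160 CPM in fetal to 1255 ± 60.3 in neonatal cultures (log2 -1.11, edgeR adjusted p = 3.60e-04) and to 0.375 ± 0.227 in adult ones (-12.44 against fetal). The last value is a description, since the loss of cardiomyocyte transcripts in adult cultures was known when the family was chosen. For the same reason the adult counts of called thin filament genes, which include Actc1, are descriptions. The ratio of Tnnt2 to Actc1 per kilobase averaged 1.28 in fetal and 1.77 in neonatal cultures. In the adult replicates it was 1076, 2917 and 716, on only 5, 2 and 8 Actc1 counts, so its size there is loose. The skeletal actin Acta1 (157, 36.5 and 2.01 CPM in fetal, neonatal and adult cultures) and nebulette, Nebl (26.1, 8.36 and 0.223 CPM), also fell at each step. So did Actg2, the enteric smooth muscle actin, from 834 to 209 and 11.4 CPM.

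Tropomyosin, which binds troponin T along the filament, stayed high. Tpm1, whose transcripts include the cardiac form, went from 3454 ± 207 CPM in fetal to 2556 ± 26.3 in neonatal cultures (log2 -0.43, edgeR adjusted p = 0.0167). The adult level of Tpm1 was 980.2 ± 147 CPM (-1.82 against fetal), a description for the same reason as that of Actc1. Tpm2 rose from 1434 to 2123 CPM between fetal and neonatal cultures (0.57, adjusted p = 0.0176), and its adult level of 1473 CPM did not differ from the fetal one by the test (0.04, adjusted p = 0.829). Tpm4, a nonmuscle form, was at 1260 CPM in fetal and 824 CPM in adult cultures (-0.61, adjusted p = 5.19e-04). Acta2, the smooth muscle actin of myofibroblasts, was at 7183, 9897 and 3580 CPM, lower in adult than in fetal cultures (-1.005, adjusted p = 0.00409). Actb, a cytoplasmic actin, was called at no age (5798, 5974 and 6021 CPM). The leiomodin Lmod1 rose from 93.5 to 219 CPM between fetal and neonatal cultures (1.22, adjusted p = 0.0181), and the pointed-end cap Tmod1 fell from 41.7 to 20.7 CPM (-1.01, adjusted p = 7.01e-05) and was at 7.91 CPM in adult cultures. Actg1, the other cytoplasmic actin, is known to be abundant in most cells but was at 2.42 to 5.84 CPM in every library here; which other genes of the table were counted too low was not tested.

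Smooth muscle and nonmuscle cells control their thin filaments without troponin, through caldesmon, calponins and transgelins. Of 5 tested regulators, 1 was called higher and none lower in neonatal than in fetal cultures, and 1 higher and 3 lower in adult than in fetal cultures. These shares, 20% and 80% of the list, stand against 36.3% and 70.5% of all tested genes. Caldesmon, Cald1, was at 1889 CPM in fetal, 2107 in neonatal and 677 in adult cultures (adult against fetal -1.48 on the log2 scale, edgeR adjusted p = 1.52e-06). Tagln was at 4374, 5255 and 3487 CPM. Tagln2 rose from 1278 CPM in fetal to 1770 in neonatal (0.47, adjusted p = 0.00357) and 1957 in adult cultures (0.62 against fetal, adjusted p = 1.75e-04).

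Of 13 tested transcription factors known to act at muscle gene promoters, 2 were called higher and 4 lower in neonatal than in fetal cultures by edgeR, and 10 were lower and none higher in adult than in fetal cultures (median log2 difference -1.11). Over all tested genes 36.3% were called in the first comparison and 70.5% in the second, against 46.2% and 76.9% of these factors. The highest 3 were Srf (150.1, 147 and 125 CPM in fetal, neonatal and adult cultures), the GATA-site factor Gata4 (137, 221 and 140.04) and the MCAT-binding factor Tead3 (97.1, 94.3 and 82.8). Gata4 rose between fetal and neonatal cultures (0.69, adjusted p = 0.00732), as did Tbx20 (27.2 to 50.7 CPM, 0.89, adjusted p = 0.00373). The part of any of these factors in the troponin levels was not tested. Named after their values were seen, the MCAT-binding factors Tead1 and Tead2 were lower in adult than in fetal cultures (-2.02, adjusted p = 1.09e-06, and -2.60, adjusted p = 6.18e-08). Myocd and Tbx5 of the same list fell further in that comparison (-6.90 and -4.80). Nkx2-5, also a cardiomyocyte gene of the list above, was at 14.6, 4.77 and 0 CPM. It is among the 10 factors lower in adult cultures, where its loss is a description.

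Of 12 tested skeletal muscle genes, 7 were called lower and 1 higher in neonatal than in fetal cultures (median log2 difference -1.23), and 11 were lower and none higher in adult than in fetal cultures. That is 66.7% and 91.7% of the list, against 36.3% and 70.5% of all tested genes. Myog, Mylpf and Mybpc1, at 0 to 12 counts in every neonatal and adult library, passed the filter only through the fetal libraries and so had to be lower. The highest was Casq1, the calcium store protein of skeletal muscle, at 108, 41.5 and 0.789 CPM (neonatal against fetal -1.39, edgeR adjusted p = 7.30e-05). Myh3 was at 51.0 ± 45.6 CPM in fetal and 3.13 in neonatal cultures (-3.97, adjusted p = 0.00160), and Mybpc2, the fast myosin-binding protein C, at 29.3 and 13.9 CPM (-1.07, adjusted p = 1.11e-04). Myh2 was the gene called higher (1.03, adjusted p = 0.0264), and without fetal replicate 3 the counts were 7 lower and 3 higher. Casq1 and Mybpc2 were not raised in fetal replicate 3 (ratios 0.987 and 0.997 to the other fetal libraries), unlike Myh3 and the low troponins.

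The genes next to the troponins were read in the same comparisons. Of the 10 tested neighbours in the count table, 2 were called higher and 3 lower in neonatal than in fetal cultures by edgeR, and 5 higher and 2 lower in adult than in fetal cultures, where 36.3% and 70.5% of all tested genes were called. Pkp1, the desmosome protein next after Tnnt2, was at 297 ± 116, 93.2 ± 3.02 and 46.5 ± 11.8 CPM and lower at each step (neonatal against fetal -1.67, adjusted p = 0.00207; adult against neonatal, adjusted p = 0.0103). Lad1, between Tnni1 and Tnnt2, was not tested and had 1, 4 and 157 counts in the fetal replicates. Lsp1, the leukocyte protein between Tnni2 and Tnnt3, was at 147 ± 81.1 CPM in fetal, 47.6 in neonatal and 239 ± 38.8 in adult cultures, lower in neonatal than fetal (-1.63, adjusted p = 0.00570) and higher in adult than neonatal (2.33, adjusted p = 3.00e-04).

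Likeness of pattern was measured over the 9 libraries as the root mean square (RMS) difference between mean-centred log2 CPM profiles, where a smaller value is a closer match. The 9 libraries share age groups and depth, so these values are descriptions. They include the adult libraries, in which Tnnt2 was chosen for staying expressed while other cardiomyocyte transcripts were near 0. That choice kept such genes away from the Tnnt2 profile, so nothing is drawn from its contrast with the other cardiac forms. Nearest to Tnnt2 were Tnik (RMS 0.142, Pearson r 0.994), Col27a1 (0.168), Col4a3 (0.189), Robo1 (0.191) and Mmp16 (0.199), none of them a sarcomere gene. Tnik stood at 27.6, 18.2 and 3.46 CPM in fetal, neonatal and adult cultures. The other cardiac forms were nearest to muscle genes: Tnni1 to Sh3bgr (0.233) and Csrp3 (0.382), Tnni3 to Myoz2 (0.299) and Cox6a2 (0.307), and Tnnc1 to Smpx (0.283) and Ldb3 (0.384). Tnnt1 was nearest to Mybpc1 (0.273) and Tmem8c (0.396), Tnnt3 to Fat3 (0.262) and RGD1305587 (0.281), and Tnnc2 to Hoxd13 (0.565) and Wnt11 (0.672). Among the troponins themselves, Tnni1 and Tnnc1 (0.781), Tnni3 and Tnnc1 (0.830) and Tnnt1 and Tnnc2 (0.736) were closest, and Tnnt2 was 1.53 from its nearest relative, Tnnt1. In the neonatal and adult libraries Tnnt1 had 3 to 8 counts, Tnnc2 0 to 11 and Mybpc1 0. There the prior count of 2 set much of their profiles, so little can be read from their likenesses.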

How the data were processed

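RNA-seq was done on 9 libraries of cultured rat cardiac fibroblasts, 3 per age. Per the submitters' processing notes, the authors used FastQC, Trimmomatic 0.39, STAR 2.5.2b, featureCounts (Subread 1.6.3) and DESeq2. The deposited table holds the authors' raw counts per gene with exon positions, made with featureCounts against an rn6 gene annotation with default options, per the file headers, so reads were counted without strand. A second deposited table holds normalized values (signal) for 12786 genes; each of its values was the count divided by 1 factor per library (100% within 1e-06), and it was used only for those factors.

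Counts were analysed with R 4.3.3 and edgeR 4.0.16 (limma 3.58.1): TMM scaling, the filterByExpr filter by age, and a robust quasi-likelihood fit of age over all 9 libraries, with Benjamini-Hochberg adjustment over 11337 genes and a threshold of 0.05. Of the 8 troponins, 7 passed the filter. Only neonatal against fetal was tested for them, because adult libraries served to choose them. Log2 fold changes use a prior count of 2. Depth was 13392825 to 22850491 counts; ratios of summed counts carry exact 95% intervals, and a floor of 3 counts stands for 0, both for counting error only. Reads had no molecular identifiers, so they need not be separate molecules. Scripts were tested on simulated data. No pair of libraries of the same age agreed within counting noise, which would give a chi-square per degree of freedom near 1. The neonatal pairs were closest, at 2.09 to 2.84. Fetal replicates 1 and 2 were at 4.08, the adult pairs at 6.98 to 45.0 and the pairs with fetal replicate 3 at 94.4 and 102.

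The genes and the 12 gene lists were chosen with earlier results of these data known. Named were all members and any thin filament gene. In each other muscle list the 3 with the highest mean CPM and those called opposite to most were named. Also named were the nearest genes by profile (5 for Tnnt2, 2 for each other tested member) and the genes next to each member. Further listed genes, such as Myod1, Mylpf, Hspb7, Myl4 and Csrp3, were named after their values were seen. DESeq2 1.42.0, other scalings, no filter, only the 2 ages compared, prior count 0.5, a replicate block, no division by length, and leaving out each library were tried as alternatives.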

Additional observations from a re-analysis of the deposited data

How the results depend on the processing

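Of 634 alternative values, 599 were labelled unchanged, by rules that differed with the kind of value. Differences of single genes were judged by direction, side of the threshold or replicate spread. Counts of genes, 203 of the 599 for the gene lists alone, had only to stay near the main count in size. For example, 5 to 8 members past the threshold, against 6, were labelled unchanged. Shares and ratios with 1 library left out could not leave the replicate spread, so their label tests nothing. Tnnt2, Tnni1 and Tnnc1 were called lower in neonatal than in fetal cultures under every alternative run. The number of members past the threshold, with Tnnt1 and Tnnc2 included although the filter favoured their direction, was 6; it was 5 to 6 when 1 library was left out, 7 with library size only (Tnnt3 added), 7 with no filter on low counts (Tnni2 added) and 8 with DESeq2 (both added). The values that turned were of low genes: Tnnt3, adult against fetal, was -0.051 with library size only and -0.25 to 1.21 with 1 library left out (-0.25 without fetal replicate 1, -0.22 without fetal replicate 2), and Tnnt1, adult against neonatal (-0.05), was 0.14, 0.03 and 0.06 with neonatal replicate 2, adult replicate 1 or adult replicate 2 left out. The causes were not tested.

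Thin filament genes called between neonatal and fetal cultures numbered 5 to 9 with 1 library left out. Smooth muscle and nonmuscle regulators called in that comparison numbered 2 with library size only and with DESeq2, and 1 to 3 with 1 library left out (3 without adult replicate 1), against 1. Skeletal muscle genes called numbered 13 (1 higher, 12 lower) with no filter on low counts, when more genes were tested, against 8. Without division by exon length the ratio of Tnnt2 to cardiomyocyte genes was 0.348 in neonatal and 12.5 in adult cultures. Over all genes, 4114 were called between neonatal and fetal cultures, and 2607, 2476 and 2575 without neonatal replicate 1, 2 and 3. Library size alone moved the median log2 difference of all genes to -0.173 there and to -0.12 in adult against fetal cultures, and the share of higher calls from 50.4% to 29% in neonatal against fetal.

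Libraries share replicate numbers in their labels, but same-numbered libraries did not deviate together (r from -0.0649 to 0.0521 over 9 pairs, none over 0.1; 4 of 9 libraries correlated best with their own number). With a replicate block 3713 genes were called between neonatal and fetal cultures, but the number of members past the threshold stayed at 6, no call of a member changed and no list count moved by over 1.5 times. With 11 to 19 adult counts for Tnnc1 and 13 or fewer for Tnni1 and Tnni3 in all, depth limits the adult levels of these genes.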
